A study of Mus musculus with 6 samples.

Results

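The platelet-derived growth factor (PDGF) genes of the mouse are 4 ligand genes (Pdgfa, Pdgfb, Pdgfc and Pdgfd), 2 receptor genes (Pdgfra and Pdgfrb) and the receptor-like gene Pdgfrl. All 7 were present among the 55487 gene identifiers of the count table, each matched to its symbol by a single Ensembl identifier, and 6 of them passed the filter on low counts that left 19015 tested genes. RNA was measured in 6 cultures of cells from the skin of C57BL/6 mice that the labels call ECs. Of these, 3 had been kept in 5 mmol/L glucose (normal glucose) and 3 in 20 mmol/L glucose (high glucose) for 48 hours, with no other agent and no altered allele named for either group. The cells came from 4 to 6 mice aged 2 to 3 months, taken with beads against CD31. The legends count the 3 replicates of a group as mice, while the isolation is described from 4 to 6 mice, and whether each replicate was a separate isolation is not stated. P values therefore measure the spread between these samples, which may be in part technical.

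PDGFs are secreted dimers that bind receptor tyrosine kinases at the cell surface. PDGF-A and PDGF-C act mainly through PDGFR-α, PDGF-B binds both receptors, and PDGF-D acts mainly through PDGFR-β. In vessels, ECs are the known source of PDGF-B, which recruits pericytes and smooth muscle cells carrying PDGFR-β. PDGFR-α is a receptor of fibroblasts and other mesenchymal cells.

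The labelled cell type was compared with its markers before the PDGF genes were read. Total counts lay between 120192466 and 146881356 per sample, and 3 counts corresponded to between 0.0211 and 0.0258 normalized CPM (counts scaled to a common library size with TMM factors). The 18 endothelial markers summed to between 19.7 and 22.1 CPM in normal glucose and between 20.6 and 21.3 CPM in high glucose, Sox17 was at 0 in all samples, and Pecam1, which encodes CD31, was at 0.128 ± 0.0378 CPM (SD, n = 3) in normal and 0.103 ± 0.0359 CPM in high glucose. Of the 11 endothelial markers tested, 3 were higher and 2 lower in high glucose, where 31.4% of all tested genes were called in either direction. Plvap rose from 4.51 to 6.14 CPM, Tek from 1.29 to 2.04 CPM and Erg from 0.0373 to 0.106 CPM. Erg was near the floor, with 5, 8 and 2 counts in normal and 14, 15 and 12 in high glucose. Egfl7 fell from 11.1 to 9.44 CPM, and Cdh5, the gene of VE-cadherin, from 1.80 ± 0.0797 to 0.876 ± 0.0806 CPM. Of the 18 markers, the highest were Egfl7 and Plvap, at 11.1 and 4.51 CPM in normal glucose. The genes of the receptors for vascular endothelial growth factor (VEGF), Flt1, Flt4 and Kdr, were not in this list. They were at 55.3, 6.40 and 4.96 CPM in normal and at 38.4, 7.48 and 5.50 CPM in high glucose. The 20 fibroblast markers, chosen without Pdgfra, summed to between 39600 and 43000 CPM in normal glucose and to between 71700 and 76600 CPM in high glucose, with 13 higher, 6 lower and 1 not past the threshold, beside 16.9% higher and 14.5% lower among all tested genes. The collagen genes Col1a1, Col1a2 and Col3a1 made up most of that sum, and Col3a1 alone went from 12421 to 32515 CPM. The 14 mural cell markers summed to between 829 and 936 CPM in normal and between 733 and 758 CPM in high glucose. Of 11 tested, 3 were higher, Rgs5 among them, and 5 lower, Acta2 and Tagln among them. The highest were Acta2, Tagln and Ndufa4l2, at 389, 260 and 186 CPM in normal and 318, 199 and 165 CPM in high glucose. The pericyte markers Rgs5 and Kcnj8 were at 0.640 ± 0.0776 and 0.0666 ± 0.0258 CPM in normal glucose. In high glucose they were at 1.48 ± 0.243 and 0.0563 ± 0.0231 CPM. Keratinocyte and leukocyte markers summed to at most 5.04 and 3.73 CPM in any sample. Glial and melanocyte markers reached 36.1 CPM, and muscle and adipocyte markers summed to at most 61.6 CPM in normal and at least 81.5 CPM in high glucose. Of the muscle markers, Myod1, Myog and Myf5 were at 0 in all samples and Pax7 had at most 3 counts. The adipocyte markers Plin1, Adipoq and Cidec went from 40.3, 19.2 and 0.489 CPM to 52.1, 30.7 and 0.725 CPM. The cultures are therefore called skin cells below, since 13 of the 18 endothelial markers, Pecam1 among them, were under 1 CPM in every sample while the fibroblast markers were abundant. In bulk RNA, a changed number of cells of a type and a changed amount of RNA per cell cannot be told apart.

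The levels of the 7 genes spanned from the top of the tested genes to the floor. To compare genes, normalized CPM was divided by the length of each gene's merged exons in kb. Pdgfra stood highest, with 195 ± 10.5 CPM per kb (SD, n = 3) in normal glucose and 268 ± 4.13 in high glucose, and only 160 of the tested genes had a higher mean level per kb. Pdgfrb followed at 99.7 ± 8.53 and 105 ± 4.65 CPM per kb, below 415 tested genes. Pdgfrl, which encodes a secreted protein resembling the outer part of a PDGF receptor, lay at 14.5 ± 0.555 and 22.8 ± 0.551 CPM per kb. Of the ligands, Pdgfd lay at 10.6 ± 0.450 and 15.1 ± 0.701 CPM per kb, Pdgfa at 5.18 ± 0.713 and 4.45 ± 0.259, and Pdgfc at 4.18 ± 0.0768 and 4.81 ± 0.203. Pdgfb was at 0.0216 ± 0.00766 and 0.0139 ± 0.00260 CPM per kb, below 18801 tested genes. Neighbours in this order did not overlap within either group, except that Pdgfa and Pdgfc overlapped in high glucose. The merged exons of Pdgfra come to 10.0 kb over 9 annotated transcripts, and a shorter transcript in these cells would raise its level per kb further.

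**Figure D1:**
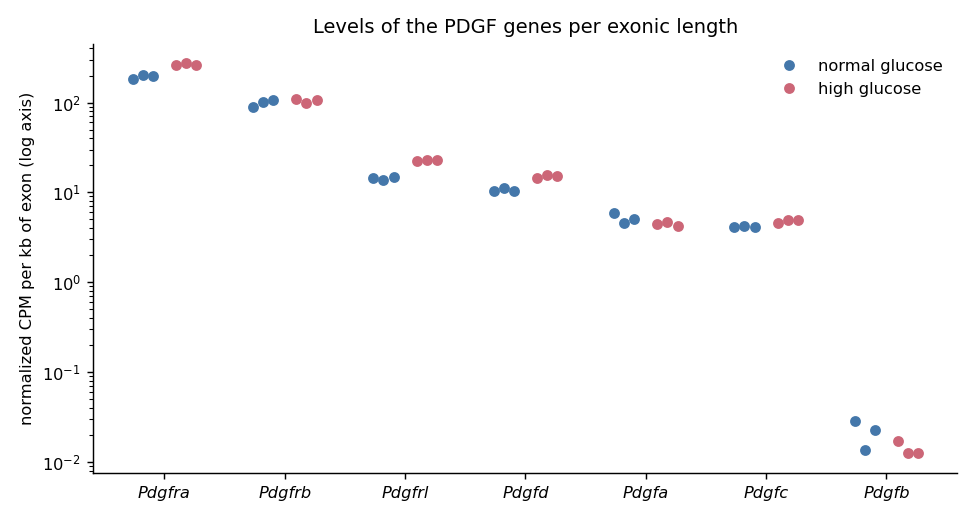
Normalized CPM per kb of merged exon (log axis) for the 7 PDGF genes in the 3 normal glucose (blue) and 3 high glucose (red) samples, ordered by the mean over all samples. Pdgfra and Pdgfrb sit at or above 90.1 CPM per kb, 4 genes lie between 4.12 and 23.2, and Pdgfb reaches at most 0.0288.

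Between high and normal glucose, 4 of the 6 tested PDGF genes rose and none fell at an adjusted P value under 0.05 (quasi-likelihood test of edgeR, Benjamini-Hochberg adjustment over all tested genes). DESeq2 also called 0 lower, and 1 gene, Pdgfa, was lower at an unadjusted P value under 0.05 in edgeR. Among all tested genes, 31.4% were called, 16.9% higher and 14.5% lower in high glucose. Lower genes made up 46.2% of the calls with TMM scaling, 56.5% with upper quartile scaling and 72.9% with library size alone, which lowered the median of all genes by 0.115 on the log2 scale. The genes that rose were the receptor gene Pdgfra, the receptor-like gene Pdgfrl and the ligand genes Pdgfd and Pdgfc. Groups did not overlap for these 4 genes, nor for 46.4% of all tested genes. High glucose lay wholly above normal glucose in 25.1% of all tested genes and wholly below in 21.3%. Each of the 4 reached P = 0.1 in a two-sided exact permutation test, the smallest value that 3 samples against 3 allow.

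**Figure D2:**
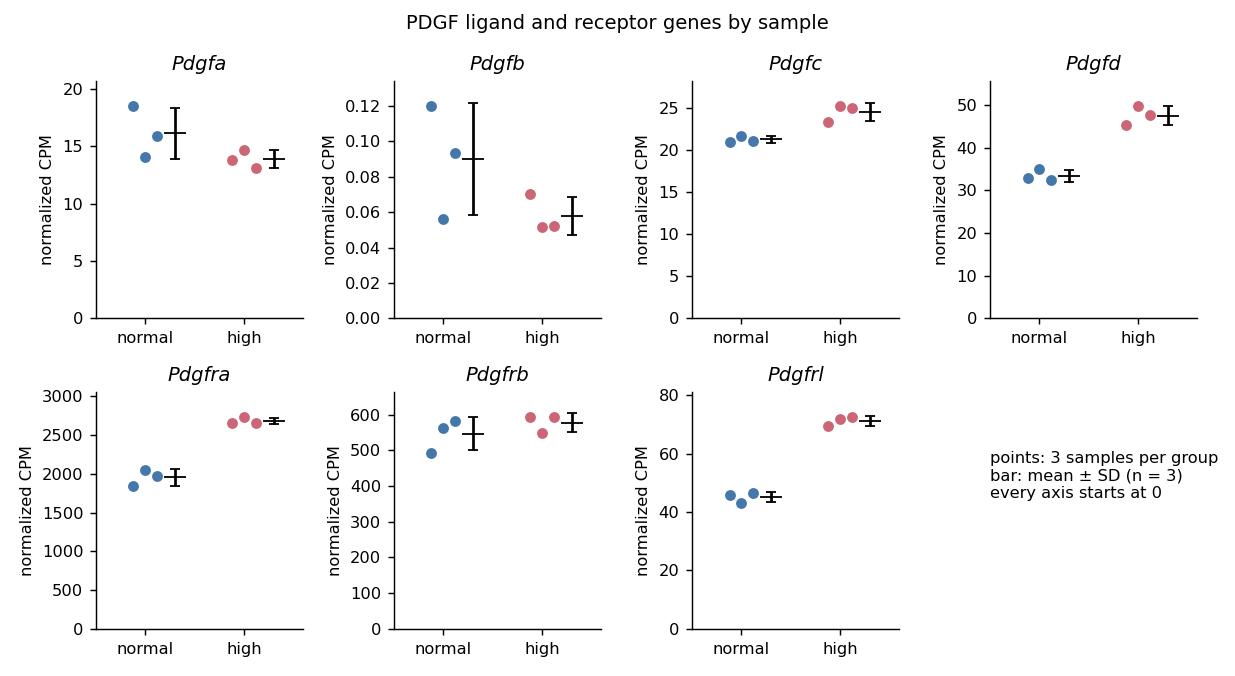
Normalized CPM of each PDGF gene in every sample (points), with the mean ± SD of each group (n = 3); each vertical axis starts at 0 and has its own scale. High glucose lies wholly above normal glucose for Pdgfc, Pdgfd, Pdgfra and Pdgfrl, and the groups overlap for Pdgfa, Pdgfb and Pdgfrb.

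**Figure D3:**
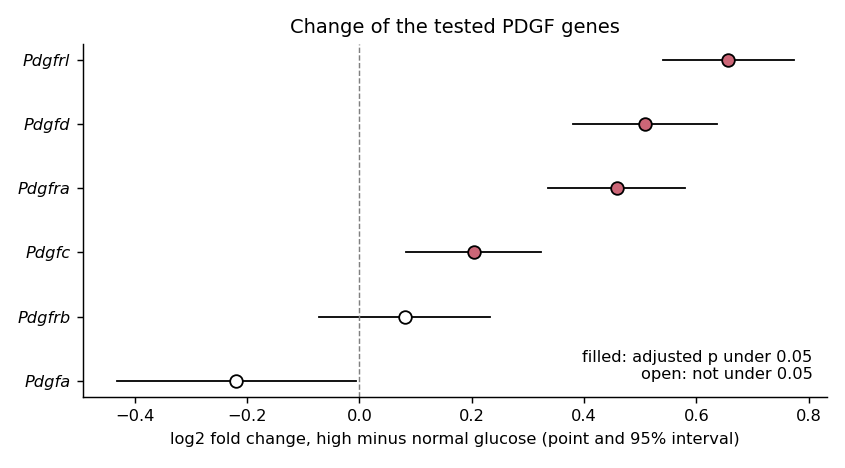
Log2 fold change (high minus normal glucose) of the 6 tested PDGF genes with its 95% interval; filled points passed an adjusted P value of 0.05. Pdgfrl, Pdgfd, Pdgfra and Pdgfc lie above 0, at 0.66, 0.51, 0.46 and 0.20, while the interval of Pdgfrb includes 0 and that of Pdgfa ends at -0.0069.

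Pdgfd showed the largest rise among the ligands. Its product is released with a CUB domain that proteases must remove before it can bind PDGFR-β. The gene (ENSMUSG00000032006) lies on chromosome 9 between 6168584 and 6378850 (GRCm38, plus strand). Normal glucose samples held 32.8, 35.0 and 32.3 normalized CPM of Pdgfd and high glucose samples 45.2, 49.6 and 47.6, from between 4110 and 6414 counts. The lowest high glucose sample exceeded the highest normal glucose sample by a margin wider than the spread within either group. The log2 fold change was 0.51 (standard error 0.057, 95% interval 0.38 to 0.64, adjusted P = 8.59e-05), a change of 42.3%.

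Pdgfc rose less. PDGF-C also carries a CUB domain and is activated by proteolysis. Its gene (ENSMUSG00000028019) lies on the plus strand of chromosome 3 from 81036416 to 81214040, and its exons overlap in part with Gm16000 on the opposite strand, which had at most 2 counts in any sample. Its level was 21.0, 21.7 and 21.1 CPM in the normal glucose samples, against 23.3, 25.2 and 25.0 CPM in those kept in high glucose. The groups did not overlap, but the closest samples differed by less than the range within high glucose. The log2 fold change was 0.20 (standard error 0.054, 95% interval 0.083 to 0.32, adjusted P = 0.0164), a change of 15.2%. It was 0.19 without normal glucose replicate 3 (adjusted P = 0.0643), 0.17 without high glucose replicate 2 (adjusted P = 0.0854) and 0.17 without high glucose replicate 3 (adjusted P = 0.122). With scaling to library size alone it was 0.088 (adjusted P = 0.228).

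Pdgfa, whose product dimerizes and signals through PDGFR-α, did not pass the threshold. The gene (ENSMUSG00000025856) lies on the minus strand of chromosome 5 from 138976014 to 138997370. Normal glucose samples held 18.5, 14.1 and 16.0 CPM of Pdgfa and high glucose samples 13.8, 14.7 and 13.1 CPM. Normal glucose replicate 2 lay among the high glucose samples. The log2 fold change was -0.22 (standard error 0.096, 95% interval -0.43 to -0.0069, adjusted P = 0.108), and without that replicate it was -0.32 (adjusted P = 0.0147). An antisense gene, 6330403L08Rik, shares 813 bp of the 3119 bp of merged Pdgfa exon, and no source says whether strand was used in counting. Reads in the shared bases therefore cannot be told apart, while the rest of the Pdgfa exons is not shared with 6330403L08Rik. The counts of 6330403L08Rik were 1318, 1827 and 1734 in the normal glucose samples, against 2160, 1780 and 1915 in those of high glucose. The fitted difference for 6330403L08Rik was 0.28 on the log2 scale (adjusted P = 0.0435), which fell short of the threshold in 13 of 18 alternatives. The lowest value of 6330403L08Rik and the highest of Pdgfa were in the same sample, normal glucose replicate 1. When the counts of both genes were summed, a setting chosen after seeing the data, normal glucose samples held 29.0, 26.9 and 29.5 CPM and high glucose samples 29.0, 30.0 and 27.3 CPM, and the groups overlapped. The summed log2 fold change was 0.016 (standard error 0.059, adjusted P = 0.866). Such a sum also takes in any reads of either gene outside the shared bases.

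Pdgfb, the ligand gene for which ECs are known, was barely detected. The gene (ENSMUSG00000000489) lies on the minus strand of chromosome 15 from 79995874 to 80014977. Its counts were 15, 8 and 12 with normal glucose, against 10, 6 and 7 with high glucose. These came to 0.0900 ± 0.0319 CPM (SD, n = 3) and 0.0580 ± 0.0108 CPM. It did not pass the filter on low counts. Fitted without that filter, the log2 fold change was -0.63 (standard error 0.42, adjusted P = 0.410), so a difference was not detectable at this depth. The groups overlapped, with a two-sided exact permutation P value of 0.2.

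Pdgfra carried the most counts of the family. It encodes PDGFR-α and lies (ENSMUSG00000029231) on the plus strand of chromosome 5 from 75152292 to 75198215. Normal glucose samples held 1839.5, 2046 and 1975.5 CPM of Pdgfra and high glucose samples 2659.7, 2731 and 2658 CPM, from between 230334 and 377269 counts. As a share of all counts this was 0.192%, 0.215% and 0.204%, against 0.257%, 0.260% and 0.256%. The high glucose samples lay within a narrow range above all normal glucose samples. The log2 fold change was 0.46 (standard error 0.055, 95% interval 0.34 to 0.58, adjusted P = 1.31e-04), a change of 37.3%. Its exons overlap Gm42802 and Gm42803 on the opposite strand and Mir7025 on the same strand, which had at most 73 counts in any sample. The summed fibroblast markers moved in the same direction, as did 13 of the 20 singly, while 6, among them Thy1, Cd34 and Pdpn (log2 fold changes -0.41, -0.99 and -0.67), fell. Their part in the rise of Pdgfra was not tested.

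Pdgfrb, the gene of PDGFR-β, did not pass the threshold. It lies (ENSMUSG00000024620) on the plus strand of chromosome 18 from 61045150 to 61085061. Normal glucose samples held 494, 562 and 583 CPM of Pdgfrb and high glucose samples 593, 548 and 592 CPM. The groups overlapped (two-sided exact permutation test, P = 0.5), as normal glucose replicates 2 and 3 lay above the lowest high glucose sample. The log2 fold change was 0.081 (standard error 0.069, adjusted P = 0.405), with a 95% interval of -0.071 to 0.23. Its sign depended on the samples and the scaling, with -0.0050 without normal glucose replicate 1 and -0.033 with library size scaling.

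Pdgfrl had the largest log2 fold change of the family. Its gene (ENSMUSG00000031595) lies on the plus strand of chromosome 8 from 40926212 to 40990785 and shares no exon with another annotated gene. Normal glucose samples held 45.8, 43.2 and 46.5 CPM of Pdgfrl and high glucose samples 69.2, 72.0 and 72.4 CPM. The samples of each group lay close together and the groups far apart. The log2 fold change was 0.66 (standard error 0.052, 95% interval 0.54 to 0.77, adjusted P = 7.88e-06), a change of 57.7%. Pdgfd, Pdgfra and Pdgfrl kept an adjusted P value under 0.05 in all 6 fits that left out a sample.

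Ratios within a sample do not depend on the scaling between libraries. Per kb, the ratio of Pdgfra to Pdgfrb was 2.04, 1.99 and 1.85 in the normal glucose samples, against 2.45, 2.72 and 2.45 in those of high glucose. The mean log2 ratio rose from 0.97 ± 0.071 to 1.34 ± 0.087 (SD, n = 3), a difference of 0.38 with no overlap between groups (exact permutation test, two-sided, P = 0.1, the smallest possible). The ratio of Pdgfa to Pdgfc was 1.44, 1.06 and 1.23, against 0.967, 0.956 and 0.857, in the same order of groups. The mean log2 ratio went from 0.30 ± 0.22 to -0.11 ± 0.096, a difference of -0.42 (the same exact test, P = 0.1), and the uncertainty in the counts of Pdgfa given above applies to it. Of the summed level of the 4 ligand genes per kb, Pdgfd held 53.0% ± 2.6 in normal glucose and 61.9% ± 0.45 in high glucose. Pdgfa held 25.9% ± 3.1 and 18.3% ± 0.83, Pdgfc 20.9% ± 0.74 and 19.8% ± 0.47, and Pdgfb 0.108% ± 0.037 and 0.0576% ± 0.013 (SD, n = 3). Pdgfa is part of the sum behind all 4 shares, so the uncertainty in its counts applies to each of them. These are shares of transcripts and say nothing of secreted protein.

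**Figure D4:**
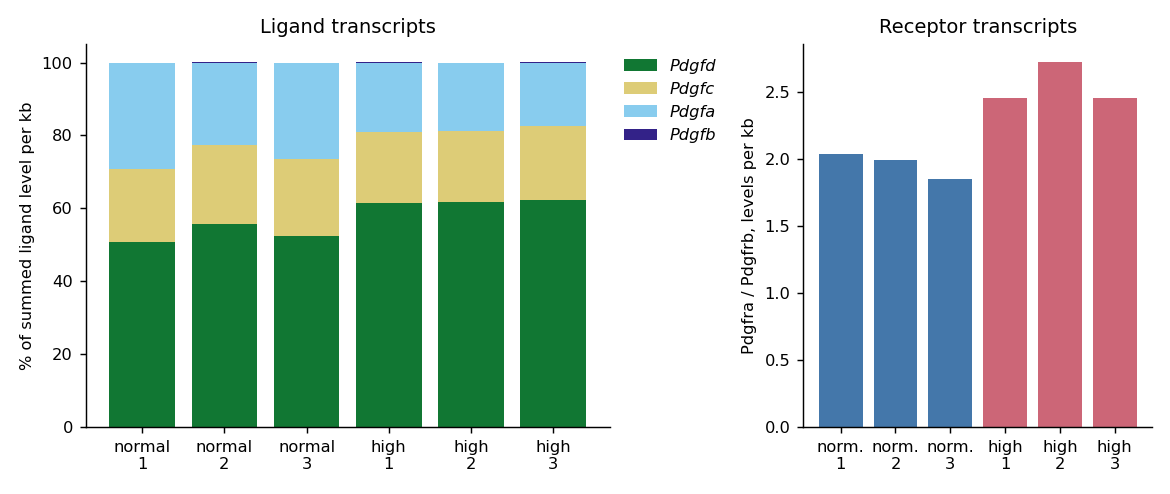
Left, share of each ligand gene in the summed ligand level per kb (percent, stacked bars, each sample a bar), and right, ratio of Pdgfra to Pdgfrb per kb in the same samples (normal glucose blue, high glucose red). Pdgfd makes up the largest share in every sample, and the receptor ratio is at most 2.04 in normal glucose and at least 2.45 in high glucose.

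Of the genes that rose, Pdgfra, Pdgfc and Pdgfd had an entry in the RefSeq promoter table (GRCm38.p6), and the 250 bases before their annotated starts are shown so that the 3 can be compared. All 3 genes lie on the plus strand, each window is written 5′ to 3′, and capitals mark a match to a motif searched on both strands.

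Pdgfra, chr5:75152001-75152250: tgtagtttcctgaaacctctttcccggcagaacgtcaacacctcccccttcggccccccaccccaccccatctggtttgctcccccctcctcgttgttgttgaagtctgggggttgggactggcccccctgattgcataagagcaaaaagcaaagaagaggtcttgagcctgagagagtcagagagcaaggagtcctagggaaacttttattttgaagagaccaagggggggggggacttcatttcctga

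Pdgfc, chr3:81036166-81036415: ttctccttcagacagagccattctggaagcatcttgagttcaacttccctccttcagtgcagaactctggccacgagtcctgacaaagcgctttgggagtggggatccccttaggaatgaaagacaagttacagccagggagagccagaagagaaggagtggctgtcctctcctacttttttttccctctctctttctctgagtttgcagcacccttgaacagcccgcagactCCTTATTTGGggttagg

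Pdgfd, chr9:6168236-6168485: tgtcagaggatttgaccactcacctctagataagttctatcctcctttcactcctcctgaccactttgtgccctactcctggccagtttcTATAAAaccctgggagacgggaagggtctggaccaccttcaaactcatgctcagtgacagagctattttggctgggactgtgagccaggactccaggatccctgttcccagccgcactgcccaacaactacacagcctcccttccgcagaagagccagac

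The motifs searched, each with the share of all 32851 windows of this table that holds it, were the core promoter box spelled TATAAA (12.4%), the sequence CCAAT bound by NF-Y (33.8%), the site GGGCGG of SP1 (32.7%), the E box written as CACGTG (6.02%), the AP-1 recognition site TGACTCA (4.46%) and the forkhead factor site TGTTTAC (3.17%). Also searched were the early growth response factor site GCGTGGGCG (0.536%), the STAT factor site TTCNNNGAA (7.02%) and the CArG box of serum response factor (1.47%). The Pdgfc window held a CArG box from 17 to 8 bases before the start and overlapped no other match. The Pdgfd window held TATAAA from 160 to 155 bases before the RefSeq start. None of these letters was found in the Pdgfra window. GC content was 54.4% for Pdgfra, 50.8% for Pdgfc and 53.6% for Pdgfd, against a median of 52.4% over all windows. The 2 windows of Pdgfa were richer, at 66.4% and 72.4%, held 19 and 28 CpG dinucleotides where the windows of the 3 rising genes held 3 or 4, and held 1 and 2 matches to the SP1 site. They are not printed, as they overlap annotated exons of the gene. These are matches of letters and not measured binding sites.

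Transcripts of the proteins that ripen, hold or bind PDGFs changed in both directions. A list of 14 such genes, all tested, held 8 that rose, 5 that fell and 1 that did not pass. Thus 92.9% were called against 31.4% of all tested genes, and the median log2 fold change was 0.22 beside 0.0062 over all tested genes. This list and those below were written with earlier results of these data known, so their shares are descriptions and not tests. Among the proprotein convertases, which cut PDGF-A and PDGF-B precursors, Pcsk5 rose from 261 ± 13.1 to 753 ± 7.60 CPM (SD, n = 3), which was 1.53 on the log2 scale (adjusted P = 4.27e-08). Pcsk6 rose from 0.493 ± 0.0651 to 2.05 ± 0.0340 CPM, by 2.06 on the log2 scale (adjusted P = 2.11e-06), and Furin by 0.22 on the log2 scale (adjusted P = 0.0120). Pcsk7 did not pass (log2 fold change 0.12, adjusted P = 0.0998). The proteases named for the CUB-domain ligands went the other way. Plat, the tissue plasminogen activator that activates PDGF-C, fell from 158 ± 9.0 to 120 ± 2.98 CPM (log2 fold change -0.40, adjusted P = 3.91e-04). Plau, the urokinase that activates PDGF-D, fell from 64.1 ± 1.93 to 37.0 ± 0.616 CPM (log2 fold change -0.79, adjusted P = 1.57e-06). St14, whose product matriptase also cuts PDGF-D, fell from 0.949 ± 0.0934 to 0.373 ± 0.0283 CPM (log2 fold change -1.35, adjusted P = 1.38e-04). Pdgfc and Pdgfd transcripts were thus higher in the samples in which these 3 protease transcripts were lower, and protein activity was not measured.

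The co-receptors and matrix partners of the same list did not share a direction. Lrp1, an endocytic receptor that associates with PDGFR-β, rose from 1607 ± 121 to 2989 ± 215 CPM (log2 fold change 0.90, adjusted P = 8.34e-06). Nrp1, a co-receptor of several growth factors, rose by 0.60 on the log2 scale (adjusted P = 8.32e-05). Hspg2, the basement membrane proteoglycan perlecan, and Sparc, a matrix protein that binds PDGF, rose by 0.81 and 0.21. A2m, a plasma-type inhibitor that can bind PDGF, rose by 0.47. Thbs1, the gene of the matrix protein thrombospondin-1, and Cspg4, that of the pericyte proteoglycan NG2, fell by 0.49 and 0.91 on the log2 scale (adjusted P = 5.80e-05 and 4.96e-05). Adjusted P values of Furin, Sparc and A2m lay above 0.05 in 6, 4 and 7 of 18 alternatives. They did so for Furin without each high glucose replicate in turn (up to 0.0815), for Sparc without high glucose replicate 2 or 3 (0.0786 and 0.0697), and for A2m without normal glucose replicate 1 or high glucose replicate 1 or 3 (0.0807, 0.112 and 0.120). With the replicate number as a block, A2m had an adjusted P value of 0.0511.

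Genes that carry the signal inside the cell changed less. Of 39 such genes, all tested, 11 rose, 4 fell and 24 did not pass, with a median log2 fold change of 0.043, so that 38.5% were called against 31.4% of all tested genes. Pik3r1, the regulatory subunit of PI3-kinase that docks on the receptors, rose from 174 ± 8.14 to 278 ± 4.61 CPM (log2 fold change 0.68, adjusted P = 6.79e-06). The kinase gene Braf, whose product acts below RAS, rose by 0.46 on the log2 scale (adjusted P = 8.82e-04). Of the 3 most abundant members, Stat3 rose by 0.19 on the log2 scale (adjusted P = 0.0183), Shc1 did not pass (-0.083 on that scale, adjusted P = 0.305), and Akt1 was at 394 ± 21.5 and 399 ± 2.17 CPM. Stat3 lost its call in 7 of 18 alternatives, among them the fits without high glucose replicate 1, 2 or 3 (adjusted P = 0.121, 0.0687 and 0.101), and Shc1 passed at -0.15 without normal glucose replicate 1 (adjusted P = 0.0182). The list's count of lower genes ranged from 2 to 9 over the fits that left out a sample.

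Genes that end the signal held few calls beyond the share over all tested genes. Of 19 phosphatases, ubiquitin ligases and sorting proteins, 18 were tested, 7 rose, none fell and 11 did not pass, with a median log2 fold change of 0.085. This was 38.9% called, against 31.4% of all tested genes. At an unadjusted P value under 0.05 edgeR had 1 lower gene, and DESeq2 called 1 lower. Ptpn1, a phosphatase that removes phosphate from PDGF receptors, rose from 102 ± 5.03 to 168 ± 0.864 CPM (log2 fold change 0.72, adjusted P = 4.63e-06). Socs1 and Socs3, feedback inhibitors of cytokine signalling, rose by 0.52 and 0.28, and the adaptor Grb10 by 0.46 on the log2 scale (adjusted P = 6.42e-04, 0.00689 and 6.82e-05). The phosphatase Ptprk rose by 0.36 (adjusted P = 0.00295). Cbl, a ubiquitin ligase of activated receptors, and the phosphatase Ptpn2 had log2 fold changes of 0.25 and 0.22 (adjusted P = 0.0191 and 0.0393). Cbl fell short of the threshold without normal glucose replicate 3 or high glucose replicate 1 or 2 (adjusted P = 0.0905, 0.0844 and 0.0961), and Ptpn2 fell short in 5 of the 6 fits without a sample (adjusted P up to 0.187) and with the replicate block (adjusted P = 0.0675). Over the fits without a sample, 5 to 7 members rose and up to 3 fell, and 4 rose and 7 fell with library size scaling.

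Genes known to respond to PDGF and other growth factors mostly fell. Of 25 genes, all tested, 13 fell, 5 rose and 7 did not pass, with a median log2 fold change of -0.20, against 14.5% lower and 16.9% higher among all tested genes. The largest falls were those of Dusp6, a phosphatase that switches off ERK, from 28.7 ± 0.939 to 11.2 ± 0.678 CPM, Egr2, a transcription factor, and Ptgs2, which makes prostaglandins, from 43.4 ± 2.78 to 17.9 ± 0.244 CPM. Their log2 fold changes were -1.36, -1.32 and -1.28 (adjusted P = 1.91e-07, 3.10e-05 and 1.94e-07). The monocyte-attracting chemokine genes Ccl2 and Ccl7, the most abundant of the list, fell by 1.09 and 1.06 on the log2 scale (adjusted P = 1.94e-07 and 8.37e-05). Junb, a partner of FOS, was at 247 ± 6.39 and 259 ± 8.70 CPM and did not pass. Many signals besides PDGF act on these genes, and their source was not tested.

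**Figure D5:**
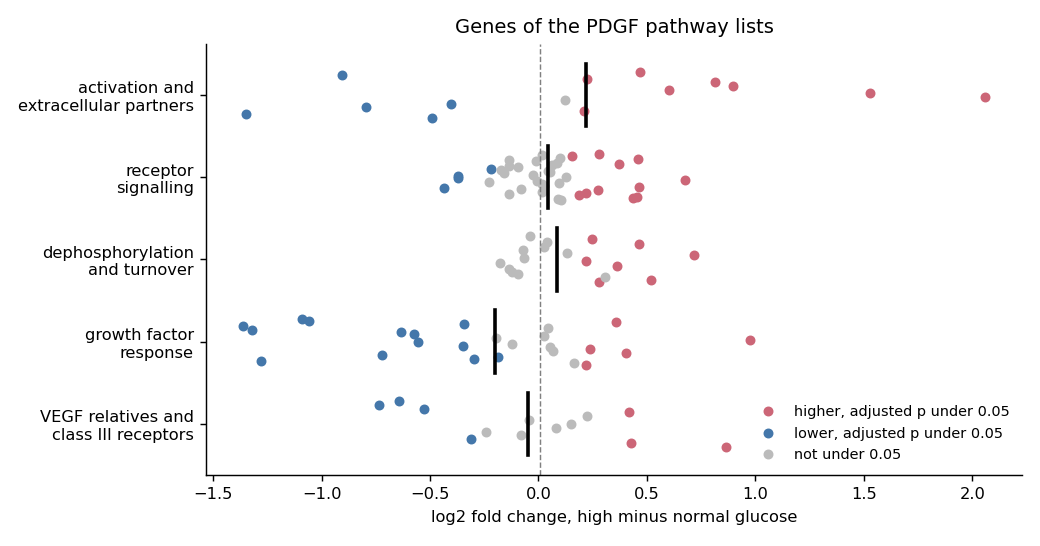
Log2 fold change (high minus normal glucose) of each tested gene in the 5 pathway lists; red and blue points passed an adjusted P value of 0.05, black bars are list medians and the dashed line is the median of all tested genes (0.0062). Most called growth factor response genes lie below 0 (13 of 18), and all 7 called dephosphorylation and turnover genes lie above it with TMM scaling.

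Relatives of the PDGF genes are the VEGF ligands and receptors and the other receptor tyrosine kinases of class III. The ligands of these kinases were listed with them. Of the 15 genes of this list 13 were tested, 3 rose, 4 fell and 6 did not pass. Thus 53.8% were called against 31.4% of all tested genes. Vegfd rose from 155 ± 2.82 to 281 ± 13.7 CPM (log2 fold change 0.86, adjusted P = 1.35e-06), and Vegfc and Flt3l by 0.43 and 0.42 on the log2 scale. Csf1, the macrophage growth factor gene, fell from 1243 ± 35.6 to 796 ± 7.16 CPM (log2 fold change -0.64, adjusted P = 5.66e-06). Its receptor gene Csf1r, the VEGF receptor gene Flt1 and the ligand gene Vegfb fell by 0.73, 0.53 and 0.31 on the log2 scale. Vegfa, at 239 ± 10.0 and 226 ± 13.4 CPM, did not pass (log2 fold change -0.081, adjusted P = 0.335), nor did Kdr, Flt4, Pgf and Il34. Kit and Flt3, the other kinases of the class, were near or at the floor, with at most 10 counts of Kit in any sample and Flt3 at 0 in all samples. Of the kinases of class III, Pdgfra and Pdgfrb were thus the members with levels above 10 CPM, with Csf1r at 5.62 ± 0.646 and 3.38 ± 0.429 CPM.

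Over the 6 samples, normalized log2 CPM was correlated between each tested PDGF gene and the 10012 tested genes whose mean log2 CPM was 3 or more, as a description of pattern with no test. The genes most like Pdgfra were Lrp6 and Sh3pxd2a (Pearson's r = 0.9995 and 0.9994), those most like Pdgfd were Cp and Ppp1r3b (0.9993 each), and those most like Pdgfrl were Agt and Fxyd5 (0.9995 and 0.9992). For Pdgfc they were Lsm14a and Isg20l2 (0.996 and 0.994), for Pdgfrb Camta2 and Cc2d1a (0.996 and 0.995), and for Pdgfa Timm22 and Myg1 (0.995 and 0.993). With 6 samples in 2 groups, any gene that differs strongly between the groups resembles any other, and 1206 genes had r above 0.95 with Pdgfra, compared with 69 for Pdgfrb.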

How the data were processed

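RNA of 6 cultures was sequenced after poly(A) selection. Per the methods and the submitters' processing notes, the authors trimmed reads with Trimmomatic, aligned them to GRCm38 (mm10) with HISAT2 and quantified genes with StringTie. The deposited values are whole-number counts per gene, not normalized. Versions, annotation release and strand setting are not given in the sources used here. Values of 2 were nearly as frequent as values of 1 (9280 against 10842), so both reads of a pair may have been counted. The level given for 3 counts covers counting error only, whereas standard errors and intervals of fold changes include the spread between samples.

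Symbols were found for 55141 of 55487 identifiers, and the others held 0.0340% of the counts. Genes were filtered with filterByExpr (minimum count 10, minimum total count 15), TMM-normalized and tested in R 4.3.3 with edgeR 4.0.16 (quasi-likelihood test, Benjamini-Hochberg adjustment, threshold 0.05, no fold minimum). The fit was checked on simulated counts, where it called 67.5% of the tested genes given a change, in the right direction. It called 38.8% of those changed 1.3-fold and 61.2% of those changed 1.5-fold. Of 18540 unchanged genes it called 12. Standard errors came from the test statistic, and log2 CPM used a prior count of 2. The biological coefficient of variation was 8.44%. Positions and exon lengths came from GENCODE for GRCm38, promoter windows from RefSeq.

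The members and gene lists were chosen with earlier results of these data known. All PDGF genes are named. In the lists, any gene of ligand activation or receptor turnover, the VEGF relatives with counts in every sample, and in the rest the 3 largest called changes and the 3 most abundant genes may be named, as may markers as levels, the 2 most similar genes of each member and genes overlapping a member's exons. Some genes that this rule would name are not reported here. Alternatives were RLE, upper quartile and library size scaling, other filters, DESeq2 1.42.0, the likelihood ratio test, robust fitting, halved counts, the replicate block, removal of GC and length trends (mgcv 1.9.3), each sample left out, and, added after seeing the data, Pdgfa summed with its antisense gene. Deviations of same-numbered samples correlated at -0.025, 0.0038 and 0.013 across genes, so the replicate numbers were not taken to pair the cultures. Replicates differed by more than sampling noise (chi-square per degree of freedom of at least 9.76).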

Additional observations from a re-analysis of the deposited data

How the results depend on the processing

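Pdgfd, Pdgfra and Pdgfrl kept their direction and an adjusted p under 0.05 (edgeR or DESeq2) in all 18 alternatives, with log2 fold changes from 0.39 to 0.58, 0.34 to 0.48 and 0.54 to 0.71. The rise of Pdgfc lost its call with library size scaling (0.088, adjusted p = 0.228) and with the GC and length trends removed together with the replicate block (0.159, adjusted p = 0.0586), and lay between 0.169 and 0.221 over the fits that each left out a sample. Pdgfa passed with library size scaling (-0.334, adjusted p = 0.0205), lay between -0.321 and -0.130 with a sample left out, and was at 0.016 when summed with 6330403L08Rik (adjusted p = 0.866). Pdgfrb turned to -0.033 with library size scaling and ranged from -0.005 to 0.120 with a sample left out. Pdgfb lay between -0.880 and -0.372. With a sample left out, the log2 ratio of Pdgfra to Pdgfrb differed between groups by 0.325 to 0.404, and that of Pdgfa to Pdgfc by -0.527 to -0.304.

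Library size scaling gave 1819 higher and 4884 lower genes in all, where TMM gave 3212 and 2757, so that the share of calls that were lower went from 46.2% to 72.9% (49.7% with RLE and 56.5% with upper quartile scaling). In the pathway lists together it gave 21 higher and 43 lower genes, where TMM gave 34 and 26. That scaling lowers every fold change by a similar amount. Without a sample, higher genes ranged from 1988 to 3149 and lower genes from 2048 to 3065, and those of the lists from 24 to 31 and from 23 to 35. Leaving out high glucose replicate 1 or 3 gave 2010 and 1988 higher genes. With the replicate block, 2909 genes were higher and 2418 lower, and the PDGF genes kept their calls (Pdgfc 0.203, adjusted p = 0.0306). Of 809 values for 45 genes of the lists and overlaps, 746 kept direction and side of the threshold, 55 lost a call, 8 gained a call and 0 turned a direction. Apart from the scaling, the cause was not tested for any of these. Depth limits what can be said of Pdgfb alone among the PDGF genes.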
